A study of Rattus norvegicus with 10 samples.

Results

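Splicing factors and heterogeneous nuclear ribonucleoproteins (hnRNPs) are described here in the brain of rats on mild calorie restriction (CR). The members were chosen by name: every probe set, the group of short probes that measures a transcript, with exactly 1 gene symbol in the platform annotation and a symbol starting with Srsf, Hnrnp, Snrp, Sf3a, Sf3b, Prpf, U2af or Ddx. This gave 149 probe sets for 93 genes, of 14217 named genes on the array, and each gene is summarised by its brightest probe set. No measured value entered the choice of genes, but the list was drawn up with earlier results of these data known. A further 11 probe sets that carry a member's name beside another symbol were left out. All 93 genes were found in RefSeq, and Ddx3x-ps1 and Srsf7-ps4 are listed there as pseudogenes.

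The study asked how small cuts in food intake change gene expression. Male Wistar rats, an outbred strain, were 6 weeks old when they received the control diet or a diet reduced by 5, 10, 20 or 30% for 1 week, and all groups were fasted for 16 h before the tissue was taken. The labels call the tissue brain and the study's methods place it in the hypothalamus area. RNA of 5 rats was pooled for each group and hybridised to 1 Affymetrix rat array, so each diet has 1 value and the 5 arrays limit the precision of every comparison.

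Nearly all protein-coding transcripts of a rat neuron or glial cell are spliced. Introns are removed by the spliceosome, built from small nuclear ribonucleoproteins (snRNPs). Each is a small RNA held in a ring of Sm proteins, or of Sm-like proteins on the U6 RNA, together with particle-specific proteins. SR proteins bind exons and mostly favour their inclusion, whereas many hnRNPs bind introns or exons, often favour skipping, and go on to package, export and stabilise the message. DEAD-box helicases unwind or remodel RNA in splicing, ribosome assembly, export, translation and decay. Several of these proteins control their own level through exons that send the transcript to decay, which makes their genes a frequent place for alternative transcript ends and exons.

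The promoters below belong to the genes on which the comparison turned most, the pair with the lowest adjusted p in each direction. They are taken from RefSeq (GRCr8 assembly), cover the 250 bases before the annotated start and run 5′ to 3′ along the gene's strand. Capitals mark matches on either strand to the letters CCGGAAG (the core of an ETS factor site), CCAAT or TATAAA.
Sf3b6, chr6:33545245-33545494, plus strand, higher in CR: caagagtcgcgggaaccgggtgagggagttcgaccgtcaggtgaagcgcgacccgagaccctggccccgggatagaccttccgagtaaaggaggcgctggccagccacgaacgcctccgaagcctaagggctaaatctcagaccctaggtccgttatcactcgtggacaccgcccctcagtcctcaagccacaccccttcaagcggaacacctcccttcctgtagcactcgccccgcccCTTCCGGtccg
Snrpe, chr13:47609252-47609501, minus strand, higher in CR: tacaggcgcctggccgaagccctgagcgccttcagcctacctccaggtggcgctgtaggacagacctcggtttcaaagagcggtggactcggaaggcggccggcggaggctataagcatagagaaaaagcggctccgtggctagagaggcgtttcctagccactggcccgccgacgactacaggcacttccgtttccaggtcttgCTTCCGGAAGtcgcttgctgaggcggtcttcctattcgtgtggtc
Hnrnpab, chr10:36363899-36364148, minus strand, lower in CR: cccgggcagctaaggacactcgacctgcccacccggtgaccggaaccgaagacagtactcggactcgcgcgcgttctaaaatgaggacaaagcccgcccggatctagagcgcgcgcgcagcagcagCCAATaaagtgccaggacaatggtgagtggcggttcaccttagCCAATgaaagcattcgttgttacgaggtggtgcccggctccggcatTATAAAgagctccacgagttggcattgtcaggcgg
Srsf11, chr2:249760259-249760508, minus strand, lower in CR: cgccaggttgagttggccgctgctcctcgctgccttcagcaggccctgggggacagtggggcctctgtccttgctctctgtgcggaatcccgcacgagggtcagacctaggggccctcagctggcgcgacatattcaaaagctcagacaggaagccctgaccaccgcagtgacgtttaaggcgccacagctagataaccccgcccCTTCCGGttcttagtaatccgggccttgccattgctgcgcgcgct
In Snrpe a match on each strand overlaps its neighbour, so that both matches together span the run of capitals. Of the 4, only Hnrnpab carried CCAAT and TATAAA, and it alone lacked CCGGAAG.

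Promoter windows of 300 bases, 250 before and 50 after the start, were listed for 85 of the 93 genes, 1 window a gene. CCGGAAG was found in 29 of these 85 windows (34.1%), against 9.22% of all 27457 windows. The share was 18.4% of the 7927 named genes that were bright enough to test and have a window. CCAAT stood in 52.9% of the member windows and 37.7% of those of the tested genes, TATAAA in 7.06% and 6.38%, and AAGATGGCG (a YY1 motif) in 3.53% and 4.04%. These shares are counts of letters on both strands and say nothing about binding. CCGGAAG was held by 5 of the 9 member genes that were higher in CR and have a window, by 7 of the 12 that were lower, and by 15 of the 58 that did not pass.

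Every comparison below rests on the single control array, which was unlike the CR arrays. Across probe sets, log2 signals of the control and a CR array correlated at 0.852 to 0.874, and those of any pair of CR arrays at 0.912 to 0.922. Signals under 10 made up 24.02% of the control array's values against 11.71 to 14.35%. Of 27 probe sets for bacterial poly-A spike-ins, added before labelling, 24 read higher on it than the CR mean (median log2 difference 1.16). Of 18 for spike-ins added at hybridisation, 6 did (median log2 difference -0.16). The log2 ratio of the 3′ to the 5′ probe set of beta-actin, a sign of RNA integrity and labelling, was 1.90 on it and 2.19 to 2.80 on the CR arrays. Of 11 markers of hypothalamic neurons, Pmch, Oxt, Avp, Hcrt, Npy, Sst, Cartpt and Trh were above the filter, Pomc, Sim1 and Gnrh1 were not, and 3 (Npy, Sst, Cartpt) were higher and 1 (Trh) lower in CR, with summed signals of 21244.9 on the control array and 23736.7 to 25938.1 on the CR arrays. Summed markers of the pituitary were 988.4 against 2046.6 to 2848.7, mostly from Cga (877.4 against 1713.9 to 2332.9). Cga, Tshb and Lhb were called higher, the last 2 from dim control signals of 43.3 and 33.6. Gh1, Prl and Fshb were under the filter. Summed markers of the choroid plexus were 364.6 against 600.5 to 760.6, through Ttr and Prlr. Folr1 did not pass, and Kl and Aqp1 were under the filter. Control sums of neurons (15005) and oligodendrocytes (21257.2, with Mog and Mal lower in CR) lay within the CR range. Single neuron markers still went both ways, with Nefm and Eno2 higher and Stmn2 and Tubb3 lower in CR. Astrocyte sums were 15819.8 against 16444.4 to 17636.2, with Gja1 higher and Aldh1l1 lower in CR. The part of these differences in the results was not tested, and with 1 array a diet the array and the diet cannot be told apart.

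Across the whole set, splicing factor and hnRNP genes changed in both directions at about the rate of all genes. Of the 93 genes, 85 passed the filter on low signals (91.4%, against 66.7% of all named genes), 10 were higher in CR, 12 were lower and 63 did not pass. In either direction, 22 of the 85 passed, against a background of 22.9%. The 10 higher genes are 11.8% of those tested, against a background of 11.6% of all named genes, and the 12 lower genes are 14.1%, against 11.3%. In Snrpn and Ddx17 the dimmer diet read below the signal at the filter (53.3), so these genes were tested through the brighter diet alone, and without them 9 were higher and 11 lower. The median log2 change, the mean of the 4 CR arrays minus the control, was -0.04 over the 85 genes and -0.02 over all 9479 named genes tested. Of the 115 member probe sets tested, 12 were higher (10.4%, background 14.5%) and 20 lower (17.4%, background 11.0%). Each value was tested with limma on log2 signals, the 4 CR arrays against the control, and adjusted over all 15521 probe sets. The 4 levels do not repeat a dose, and the control is assumed to vary as the CR arrays do. Scaling each array to its median instead moved the log2 change of all genes by -0.44, which left 5 members higher and 32 lower beside 380 higher and 3428 lower of all named genes (main values 1098 and 1075).

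**Figure D1:**
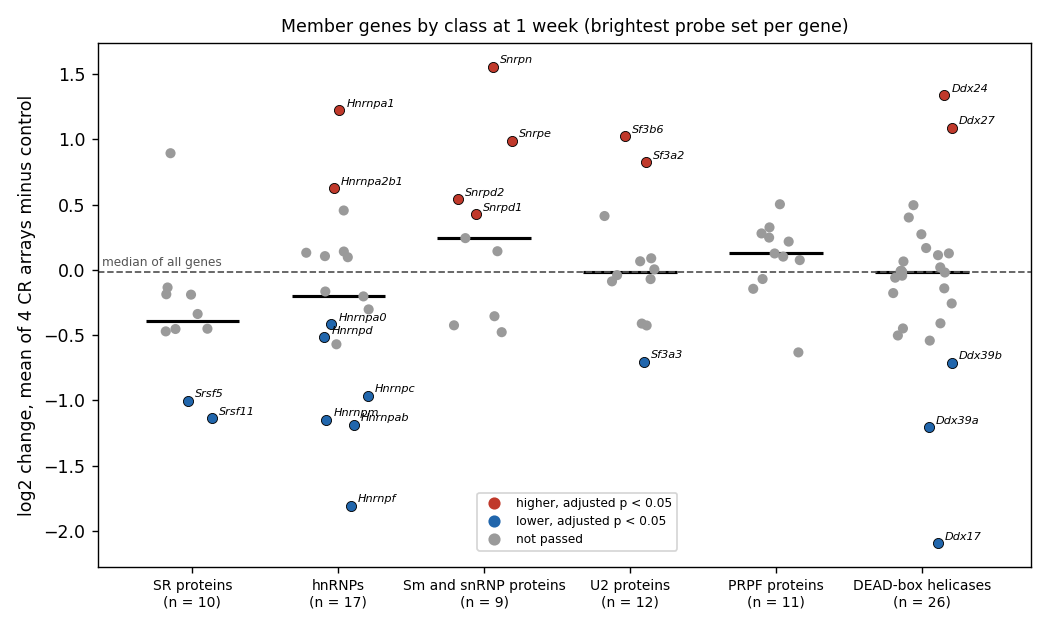
Each point is a member gene that passed the filter, placed by class on the x axis and by its log2 change (mean of the 4 CR arrays minus the control array) on the y axis. Red and blue points passed the limma test at an adjusted p of 0.05, black bars are class medians and the dashed line is the median of all 9479 genes. Called Sm and snRNP genes all lie above the line and called SR genes all lie below it, while no PRPF gene passed.

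The counts by class are read beside the 11.6% of all named genes that were higher and the 11.3% that were lower. Of the 9 Sm and snRNP genes tested, 4 were higher and 0 lower, with a median log2 change of 0.24. The 4 include Snrpn, which was tested through the CR arrays alone. Of the 10 SR genes, 0 were higher and 2 lower, with a median of -0.39. Below 0 were 9 of the 10, beside 51.6% of all named genes tested. The 9 include the pseudogene Srsf7-ps4 (-0.45), and Srsf3, under the filter, is not counted. Of the 17 hnRNP genes, 2 were higher and 6 lower (35.3%), with a median of -0.20. The 12 proteins of the U2 particle and its recruitment gave 2 higher and 1 lower (median -0.02), the 11 PRPF proteins none in either direction (median 0.13), and the 26 DEAD-box helicases 2 higher and 3 lower (median -0.02). Under median scaling the Sm and snRNP median turned to -0.20 and the PRPF median to -0.31, both still above the median of all genes of -0.46 under that scaling, and 3 Sm and snRNP genes and 1 PRPF gene were called lower. The SR and hnRNP medians were -0.83 and -0.64 under median scaling, further down than that median of all genes. Median scaling lowers every log2 change by the same amount, so the sign of these medians there was given in advance. Under quantile normalization they were -0.31 and -0.11, and under cyclic loess normalization -0.35 and -0.16. No test of one class against another was run.

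Sm proteins form the ring that sits on most of the small nuclear RNAs of the spliceosome. Snrpe, which encodes the E subunit of the ring, had a signal of 1657.6 in the control and 3101.9, 3049.4, 3729.2 and 3321.7 at 5, 10, 20 and 30% CR. All 4 CR values lay well above the control, a log2 change of 0.99 ± 0.13 (SD over the 4 CR arrays, adjusted p = 0.00073). Snrpd2, the D2 subunit, read 1554.3 in the control and 2240.6, 2307.6, 2309.3 and 2182.7 along the CR series, and its change of 0.54 ± 0.04 was small but even (adjusted p = 0.00439). Snrpd1, the D1 subunit, had 481.7 against 660.1, 652.3, 644.8 and 630.0 (0.42 ± 0.03, adjusted p = 0.0348). A dimmer probe set of Snrpd1 also rose, from 57.3 to between 145.9 and 218.9 (1.68 ± 0.26, adjusted p = 0.00222). The calls of Snrpd1 and Snrpd2 were the least firm of this class: under median scaling the log2 change of Snrpd1 was -0.01 and that of Snrpd2 was 0.10, and neither passed. Both calls were also lost without the intensity trend. Without the 5, 10 or 20% CR array the adjusted p of Snrpd1 was 0.0783, 0.0635 and 0.0515.

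Snrpn, an imprinted gene whose SmN protein replaces SmB in the neuronal ring, was dim in the control. Its signals were 41.7 in the control and 96.0, 134.4, 158.3 and 110.9 at the 4 levels, a log2 change of 1.56 ± 0.32 (adjusted p = 0.00817). The control lay below all CR values, but under the filter signal of 53.3, where it cannot be told from background, so the size of the change is uncertain. Snrpb, which encodes the SmB protein itself, moved from 421.9 to between 281.6 and 360.1 without passing (-0.42 ± 0.17, adjusted p = 0.118). Snrpd3, the D3 partner of SmB in the ring, was also listed below the control at every level, at 716.3 to 898.8 against 1059.0, and did not pass (-0.36 ± 0.15, adjusted p = 0.103). Snrpf, the F subunit, was mixed, with 606.0 in the control and 573.2 to 932.2 in CR (0.24 ± 0.29, adjusted p = 0.45). Of the ring subunits, those that passed were all higher in CR, and Snrpb and Snrpd3 had signals below the control that missed the threshold. Among particle-specific proteins, Snrpa1 and Snrpb2 of the U2 particle had log2 changes of -0.48 and 0.14 and did not pass, and Snrpa of the U1 particle fell under the filter, with 72.8 in the control and 15.7 to 36.2 in CR.

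The U2 particle recognises the branch point of the intron through the SF3a and SF3b complexes. Sf3b6, whose product (p14) touches the branch-point adenosine, had 988.2 in the control and 1814.1, 2011.8, 2193.4 and 2043.7 at the 4 levels. Every CR value was far above the control and close to the others, 1.03 ± 0.11 (2.04-fold, adjusted p = 6.0e-04), the lowest adjusted p of any member. Of the remaining SF3b genes none passed: Sf3b1, the large scaffold and a frequent target of mutation in blood cancers, changed by -0.09 ± 0.19, Sf3b2 by 0.09 ± 0.03, Sf3b3 by 0.07 ± 0.18 and Sf3b5 by -0.07 ± 0.10. Sf3b4 was lower at each level, 421.2 to 443.0 against 578.6, and missed the threshold narrowly (-0.41 ± 0.03, adjusted p = 0.0532).

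The SF3a complex has 3 subunits, and 2 of them passed in opposite directions. Sf3a2 read 185.5 in the control and 332.3, 354.6, 299.7 and 329.3 in CR, a rise of 0.82 ± 0.10 (adjusted p = 0.00715). Sf3a3 read 266.3 in the control and 154.0, 145.6, 164.3 and 193.6 in CR, a fall (-0.70 ± 0.18, adjusted p = 0.0437). Neither gene's CR values overlapped its control. Without the 5, the 10 or the 20% CR array the adjusted p of Sf3a3 was 0.0744, 0.0732 and 0.0645. Sf3a3 also did not pass under quantile normalization or without the intensity trend, and Sf3a2 did not pass under median scaling (adjusted p = 0.131). Sf3a1 had a change of -0.04 ± 0.25, around a control of 94.0. U2AF, the heterodimer that marks the end of the intron, had no subunit past the threshold. U2af1, the small subunit, was at 393.0 to 449.9 against 566.1 (-0.43 ± 0.10, adjusted p = 0.065), and U2af2, the large subunit, at 963.1 to 1197.5 against 780.8 (0.41 ± 0.14, adjusted p = 0.058). U2af2 passed under quantile normalization (adjusted p = 0.0227) and U2af1 under median scaling (0.00228). U2af1l4, a paralogue of the small subunit, had 369.4 in the control and 330.0 to 410.4 in CR.

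PRPF proteins are named after yeast genes and mostly belong to the tri-snRNP and the catalytic core. None of the 11 was called. Prpf8, the scaffold of the catalytic centre, had 798.9 in the control and 869.0, 891.8, 819.9 and 849.8 in CR (0.10 ± 0.05, 95% interval -0.17 to 0.37). Prpf19, a ubiquitin ligase of the spliceosome, had 909.4 against 1091.5, 1068.1, 1117.3 and 1042.6, each above the control (0.25 ± 0.04, interval -0.01 to 0.50, adjusted p = 0.14). The control was the lowest of the 5 arrays in 7 of the 11 genes and the highest in 1 (33.3 and 35.9% of all named genes). Prpf4b, a kinase that acts on spliceosome assembly, came nearest to the threshold (0.50 ± 0.17, adjusted p = 0.0587).

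SR proteins carry stretches of serine and arginine that are phosphorylated to control their place and activity. Srsf11 had a signal of 611.9 in the control and 256.6, 286.2, 292.5 and 277.4 in CR. The CR values were close together and less than the control at each level, a change of -1.14 ± 0.08 (adjusted p = 0.0012), and its other probe set fell from 356.5 to between 138.9 and 248.9 (-0.89 ± 0.35, adjusted p = 0.0432). Srsf5, known as a gene that responds quickly to growth factors and insulin, read 1229.5 in the control and 587.9, 539.4, 628.7 and 713.9 in CR (-1.001 ± 0.17, adjusted p = 0.00221). Both calls held in all alternatives in which the gene was tested.

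Other SR genes did not pass by their brightest probe set, but some fell by another. Srsf2, which encodes SC35, the marker of nuclear speckles, had 932.8 against 704.0 to 757.7 (-0.34 ± 0.05, adjusted p = 0.0685), and its dimmer probe set had 218.8 against 84.0, 96.3, 76.5 and 130.0 (-1.21 ± 0.33, adjusted p = 0.0225). Srsf6 had 169.4 against 115.5 to 175.6 by its brightest probe set and 373.5 against 123.2, 116.4, 88.4 and 153.4 by another (-1.66 ± 0.33, adjusted p = 0.00346). That second probe set was the brightest on the control array, and taking each gene's probe set that way gave 3 SR genes lower instead of 2. Srsf1, the founding SR protein, was uneven, with 473.5 in the control and 496.9, 341.0, 190.0 and 422.5 in CR (-0.47 ± 0.61, adjusted p = 0.427). Srsf3 stood under the filter: it was at 11.2 in the control and 35.2 to 72.0 in CR, and Srsf7, 32.8 against 38.3 to 90.7, did not pass (adjusted p = 0.233).

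**Figure D2:**
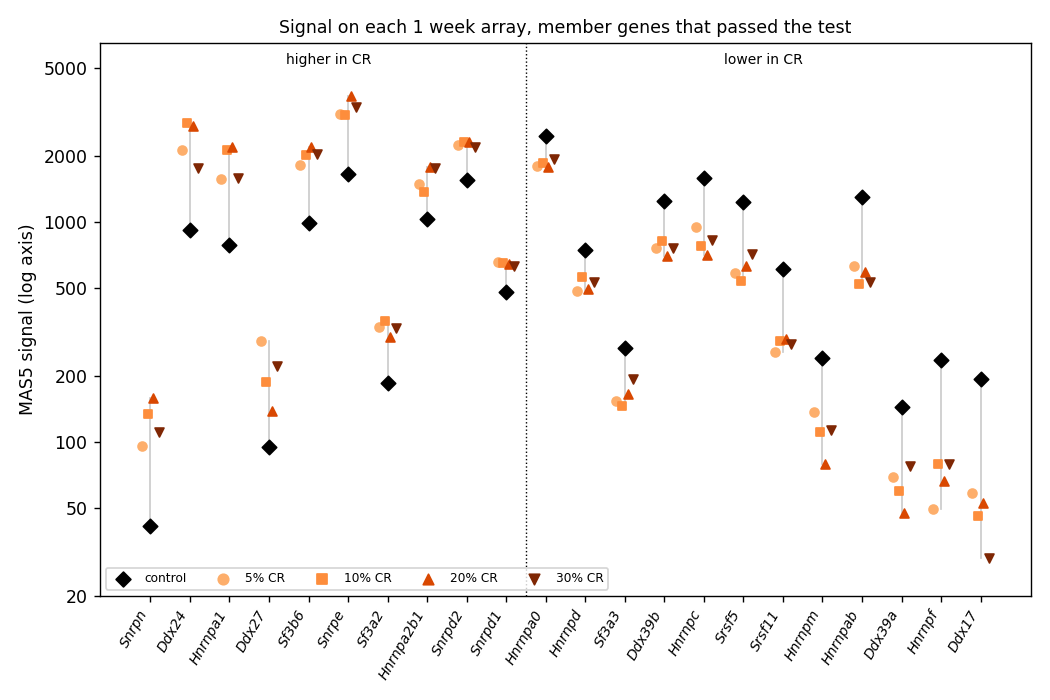
MAS5 signal (log axis) on each of the 5 arrays for the 22 member genes that passed, by their brightest probe set. Black diamonds are the control array, orange to brown points the 5, 10, 20 and 30% CR arrays, and grey lines span all 5 values. In no gene do the CR points reach the control, which choosing the genes by this same contrast makes likely. The 4 CR points do not follow a common order from 5 to 30%.

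Among hnRNPs the lower genes outnumbered the higher ones, 6 to 2 of 17 (35.3 and 11.8%, background 11.3 and 11.6%). Without the intensity trend the counts were 4 lower and 1 higher. With a filter at the 75th percentile they were 4 lower and 2 higher of 14, and the class median was -0.03. Hnrnpf, which binds G-rich runs beside splice sites, fell most, from 235.8 in the control to 49.7, 79.1, 66.1 and 79.5 (-1.81 ± 0.32, 3.50-fold lower, adjusted p = 0.00537). Its CR values lay near the filter of 53.3, where log2 values spread widely. Hnrnpab, an A/B-type protein of mRNA transport granules, was bright and fell evenly, from 1293.9 to 628.3, 520.7, 593.5 and 534.9 (-1.19 ± 0.13, adjusted p = 6.5e-04). Hnrnpm had 239.4 against 136.1, 110.4, 79.4 and 113.4 (-1.15 ± 0.32, adjusted p = 0.0221). Hnrnpc, a nuclear protein that binds U-rich runs and keeps cryptic exons out, had 1578.3 against 943.6, 779.8, 703.1 and 828.1, so all CR values were well under the control (-0.96 ± 0.18, adjusted p = 0.00243).

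A pair of lower hnRNP genes changed less. Hnrnpd, which encodes AUF1, a factor that binds AU-rich elements and marks messages for decay, had 741.9 in the control and 483.6, 563.2, 496.5 and 534.4 in CR (-0.52 ± 0.10, adjusted p = 0.0258). Without the 5% CR array its adjusted p was 0.0562. Hnrnpd did not pass under quantile normalization either. Hnrnpa0, with 2445.8 the highest control signal of any member, read 1792.0, 1855.2, 1766.3 and 1920.5 in CR (-0.42 ± 0.05, adjusted p = 0.0171). The higher genes were the related Hnrnpa1 and Hnrnpa2b1, both of which favour exon skipping. Hnrnpa1 rose from 786.5 to 1569.4, 2110.2, 2179.0 and 1574.5 (1.22 ± 0.26, adjusted p = 0.00191), and Hnrnpa2b1 from 1030.0 to 1491.5, 1371.7, 1766.6 and 1763.4 (0.63 ± 0.18, adjusted p = 0.0155). Each of these calls holds for 1 probe set of its gene, and that of Hnrnpa2b1 was lost under median scaling (adjusted p = 0.383). Fitted without the intensity trend, Hnrnpa2b1, Hnrnpd and Hnrnpa0 had adjusted p of 0.0886, 0.0846 and 0.114. Of the bright genes that did not pass, Hnrnph1 changed by 0.11 ± 0.10, Hnrnpa3 by 0.14 ± 0.10 and Hnrnpl by -0.30 ± 0.11.

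Probe sets of one gene could disagree, as in the hnRNP A/B genes. Hnrnpa1 had 3 probe sets that passed the filter: besides the one that rose, a second fell from 642.1 to 320.6, 367.9, 315.7 and 384.8 (-0.89 ± 0.14, adjusted p = 0.00464) and the last one had 360.5 against 331.9 to 399.5 (-0.01 ± 0.12, adjusted p = 0.976). Hnrnpa2b1 had 4, of which one fell from 373.2 to 97.6, 84.0, 50.7 and 86.2 (-2.27 ± 0.42, adjusted p = 0.00221), while the last 2 had log2 changes of 0.34 and -0.13 and did not pass. In each probe set that passed, the control lay outside the range of the CR arrays, which passing this test makes likely. No direction for either gene as a whole can therefore be given, and no probe positions were used here that could place a probe set on a particular exon or transcript end. Hnrnpa1 and Hnrnpa2b1 also have close paralogues and processed copies, so the target of each probe set is uncertain.

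In Hnrnpa3, 1 of 5 probe sets fell (711.6 against 267.4 to 350.5, -1.20 ± 0.18, adjusted p = 0.00185), and the other 4 ranged from -0.85 to 0.14 without passing. Hnrnpu, a nuclear scaffold protein, had a probe set that fell from 844.9 to between 554.0 and 593.7 (-0.57 ± 0.05, adjusted p = 0.0104) beside a brighter one at 978.4 against 1060.7 to 1679.6 that did not pass (0.46 ± 0.27, adjusted p = 0.123). Counted over the 21 member genes with at least 2 tested probe sets, 2 had calls in both directions (9.52%, against 4.0% of the 1873 such genes on the array) and 9 had some probe sets called and others not (42.9%, against 38.8%). The median gap between the highest and lowest log2 change of a gene was 0.87 in members and 0.74 in all such genes.

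**Figure D3:**
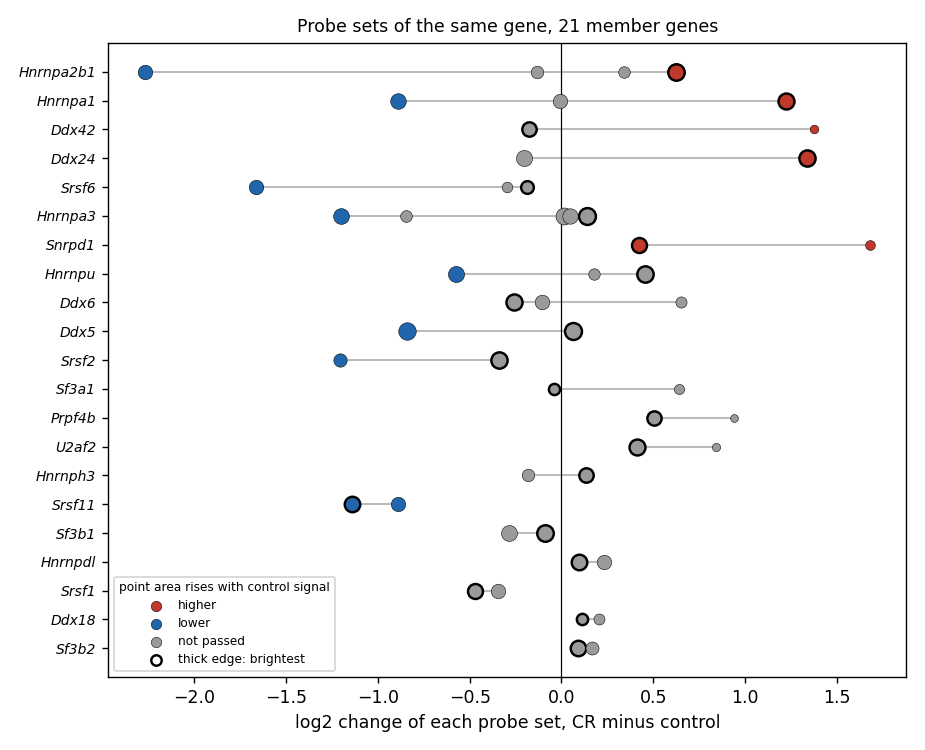
Log2 change (x axis, mean of the 4 CR arrays minus control) of each tested probe set of the 21 member genes with at least 2, one gene a row, ordered by the gap between its extremes. Red probe sets passed as higher, blue as lower and grey did not pass, a thick edge marks the brightest, and point area rises with the control signal. Hnrnpa1 and Hnrnpa2b1 hold both a red and a blue point, and the smallest gap belongs to Sf3b2.

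DEAD-box helicases were sorted by role. The 8 that act in the spliceosome or in mRNA export had 0 higher and 3 lower, with a median of -0.43 (11.6% of all named genes were higher and 11.3% lower). Ddx39b (UAP56), which loads the export machinery on spliced messages, fell from 1242.5 to 756.7, 819.4, 701.4 and 763.2 (-0.71 ± 0.09, adjusted p = 0.00391). Ddx39a, its close paralogue, fell from 143.8 to 69.0, 59.6, 47.6 and 77.4 (-1.20 ± 0.30, adjusted p = 0.0399). The latter call was lost without the 10% or the 20% CR array (adjusted p = 0.0592 and 0.0507). Ddx39a also did not pass under quantile normalization. Ddx17 fell from 193.9 to 58.6, 46.1, 53.0 and 29.6 (-2.10 ± 0.43, adjusted p = 0.00898). Of its CR signals 3 were below the filter signal of 53.3, so the gene was tested through the control alone and the size of the decrease is uncertain. It encodes p72, a partner of p68 in splicing and microRNA processing.

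Ddx5, which encodes p68, gave different results by probe set. Its brightest by mean log2 signal had 1343.7 in the control and 1274.9 to 1556.9 in CR (0.06 ± 0.13, adjusted p = 0.756), and the other fell from 1802.3 to 974.3, 1023.0, 955.7 and 1074.5 (-0.84 ± 0.08, adjusted p = 0.00118). Ddx42 did so as well, with a bright probe set at 357.7 against 284.1 to 383.1 and a dim one that rose from 40.4 to between 88.9 and 111.5 (1.38 ± 0.16, adjusted p = 0.0101), its control being under the filter signal. Ddx46, which remodels the U2 particle, had 154.0 against 207.4 to 232.5 and did not pass (0.50 ± 0.08, adjusted p = 0.0843).

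Of the 14 helicases of ribosome assembly, 11 were tested, with 2 higher and 0 lower, beside the same shares of all named genes, and a median of 0.11. Ddx24 rose from 913.7 to 2130.4, 2807.5, 2724.0 and 1758.0 (1.34 ± 0.32, 2.53-fold, adjusted p = 0.00251), but its second probe set had 847.5 against 720.6 to 775.4 (-0.20 ± 0.05, adjusted p = 0.255). Ddx27 rose from 94.7 to 286.6, 186.9, 138.3 and 221.6 (1.09 ± 0.44, adjusted p = 0.0404), with the widest spread among the called genes, and missed the threshold without the 5, 10 or 30% CR array (adjusted p = 0.0535, 0.0553 and 0.0567). The call of Ddx27 was also lost under median scaling, under quantile normalization and without the intensity trend. None of the 3 tested helicases of translation and decay passed. Ddx3x, a helicase of translation initiation, had 1715.0 against 1760.8, 1857.7, 1640.6 and 1701.0 (0.02 ± 0.08, interval -0.23 to 0.27). Ddx1, of the other 4 tested, had 1404.5 against 1327.7 to 1430.4 (-0.02 ± 0.05, interval -0.26 to 0.23). The 6 helicase genes under the filter were Ddx3x-ps1, Ddx19b, Ddx31, Ddx52, Ddx55 and Ddx60.

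**Figure D4:**
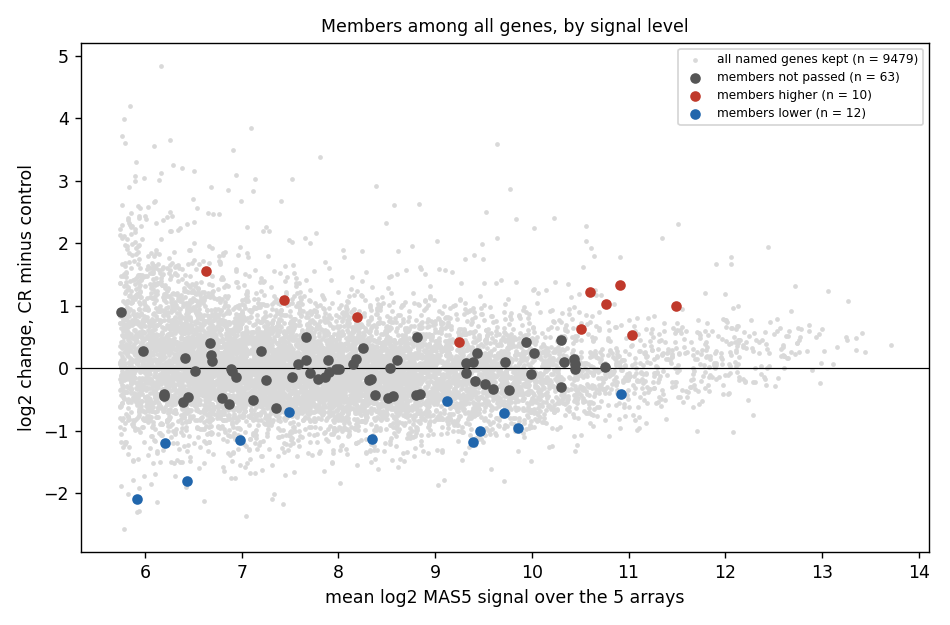
Log2 change (y axis, mean of the 4 CR arrays minus control) against the mean log2 MAS5 signal of the 5 arrays (x axis) for all 9479 named genes tested (light grey) and the 85 members (63 that did not pass in dark grey, 10 higher in red, 12 lower in blue). Members that passed occur from the dim end (Ddx17, Hnrnpf, Snrpn) to the bright end (Snrpe, Hnrnpa0), and the spread of all genes narrows as the signal rises.

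Each CR level can also be set against the control by itself, with 1 array a group and no test. A signal at least 1.5-fold higher was found in 8, 10, 11 and 10 of the 85 members at 5, 10, 20 and 30% CR, and one at least 1.5-fold lower in 14, 14, 17 and 12. Over all named genes the share higher was 16.0, 16.8, 17.4 and 15.3%, and the share lower 13.8, 15.9, 17.0 and 12.6%. All 4 ratios share the control array. The study asked for MAS5 change calls in the same direction at every level, with no fold limit. Those calls were not used here, and a 1.5-fold limit took their place. By it 6 members were higher at all 4 (background 8.88% of named genes): Ddx24, Hnrnpa1, Snrpe, Snrpn, Sf3a2 and Sf3b6. A further 9 were lower at all 4 (background 6.19%): Ddx17, Ddx39a, Ddx39b, Hnrnpab, Hnrnpc, Hnrnpf, Hnrnpm, Srsf11 and Srsf5. Snrpn and Ddx17 stand in these lists although their dimmer diet read below the filter signal. The lists use the brightest probe set of each gene. Hnrnpa1 has another that was called lower (-0.89), and another of Ddx24 did not pass (-0.20). The control lay above every CR array in 30 of the 85 members (background 35.9%) and below every CR array in 26 (background 33.3%).

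Within the CR arrays no dose relation was called. The slope of log2 signal on the CR level, over the 4 CR arrays without the control, had an adjusted p under 0.05 in 0 of the 85 members and in 0 of all 15521 probe sets (background 0%), and an unadjusted p under 0.05 in 1 member (background 4.35%) and 743 probe sets. With 2 residual degrees of freedom this test finds only slopes that are very even. The 1 member was Ddx6, a helicase of decapping and P-bodies, with 772.7, 899.3, 740.6 and 486.7 along the series, a slope of -0.29 log2 units per 10 percentage points (limma, unadjusted p = 0.00785). Its control signal was 845.6.

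Other genes of the splicing machinery were taken from a list of 128 genes, 119 of them on the array. Of the 110 tested, 14 were higher (12.7%) and 11 lower (10.0%), with a median of 0.04, again close to all genes. Snrnp70, the U1-specific protein that recruits the particle to the start of the intron, rose from 466.6 to 1067.5, 974.3, 988.9 and 1015.0 (1.12 ± 0.06, adjusted p = 3.9e-04). Son, a speckle protein needed for weak splice sites, rose by 0.99 ± 0.13, Lsm5 of the Sm-like ring on the U6 RNA by 1.11 ± 0.24, Magoh of the exon junction complex by 0.88 ± 0.06 and Taf15, an RNA-binding protein, by 1.69 ± 0.41 from 42.8, which is under the filter signal, so that this size is uncertain. Among the lower ones, Tardbp, which encodes TDP-43, changed by -0.95 ± 0.27 (adjusted p = 0.0122), from 639.9 to between 279.2 and 431.0, and did not pass without the intensity trend (adjusted p = 0.0561). Alyref, the export adaptor that Ddx39b loads, changed by -0.81 ± 0.06, from 367.8 to between 203.3 and 222.6 (adjusted p = 0.00947). Puf60, a relative of U2af2, changed by -0.79 ± 0.09, Pcbp1, a poly-C binding hnRNP, by -0.75 ± 0.09, and Plrg1, of the PRPF19 complex, by -0.75 ± 0.07, each with all 4 CR arrays under the control.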

How the data were processed

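The authors deposited linear MAS5 signal intensity, with a column for each array. MAS5, which the submitters' processing notes name, sets matched probes against mismatched ones and scales every array. Each 1 week array had a trimmed mean of 158.85. Detection calls were not used here, so dim signals cannot be told from absence. The 1 month arrays were not used, since their rows did not follow the probe set identifiers (correlation with the 1 week arrays 0.036 to 0.052). Signals were put on the log2 scale after 4 zeros were set to 0.1, and 57 control probe sets were left out. A probe set was kept if its mean over the 5 arrays was above the 50th percentile (a signal of 53.3). R 4.3.3 with limma 3.58.1 (lmFit, eBayes with an intensity trend, 3 residual degrees of freedom, Benjamini-Hochberg over 15521 probe sets, threshold 0.05) was used, with Python 3.11.15 and matplotlib 3.10.9 for counts and plots. Fits were tested on simulated data in which the control was drawn like the CR arrays, with no difference of a whole array. There they made few false calls and missed many true changes, even large ones, so a gene that did not pass may still have changed. How many false calls come from a control array as unlike the others as the real one was not tested. The requirement on recovery was dropped after it was seen to depend on the random seed.

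Named were, per class, up to 4 called genes in each direction by size with all CR arrays on one side, the 2 brightest not called, genes with calls in both directions, and all U2af, Sf3a and Sf3b genes. Of the list of other splicing genes the 5 largest called changes in each direction were named. Other genes, among them Hnrnpd and Hnrnpa0, were chosen after their values were seen. Members, lists and tests were chosen with earlier results of these data known. The p-values rest on the spread among the 4 CR arrays, shared in part over probe sets, since the lone control adds none. Those arrays are different diets, so the p-values measure no spread between rats or between repeats of a diet. The alternatives were scaling, filter, pseudocount, variance model, probe set choice and leaving out each CR array.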

Additional observations from a re-analysis of the deposited data

How the results depend on the processing

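Median scaling moved most values, with a shift of -0.44 in the log2 change of all genes. Of the calls over all named genes, 10.0% were then higher (main 50.5%). This scaling gave 5 member genes higher and 32 lower, 7 and 46 member probe sets, and a member median of -0.48. It also gave 5 and 38 other splicing genes, and 1 and 21 members past 1.5-fold at all levels. As all genes shifted, these counts are not read as results about the members. The member median was -0.0008 under quantile and -0.0783 under cyclic loess normalization, and -0.0838 to -0.0136 as each CR array was left out. Without the intensity trend 6 member genes were higher, and 8 higher and 4 lower of the other splicing genes. A filter at the 75th percentile left 5 members past 1.5-fold lower, and 2-fold left 1 higher and 4 lower. The remaining counts over all members or all listed genes were within 1.5 times the main ones. Class counts moved more. Without the intensity trend the higher genes were 2 Sm and snRNP (main 4), 1 hnRNP (main 2) and 1 DEAD-box (main 2), and 0 U2 genes were lower (main 1). Under quantile normalization 1 DEAD-box and 1 PRPF gene were higher (main 2 and 0) and 0 U2 genes lower, and under cyclic loess 1 PRPF gene was higher. The 75th percentile filter gave 1 DEAD-box gene higher and 1 lower (main 2 and 3) and 2 U2 genes lower, no filter 1 SR gene higher, and plain probe sets 1 SR gene lower (main 2). As single CR arrays were left out, DEAD-box higher ranged from 1 to 2, U2 lower from 0 to 1 and PRPF higher from 0 to 1. Under median scaling lower counts were 9 of 26 DEAD-box, 10 of 17 hnRNP, 5 of 12 U2 and 4 of 10 SR genes, beside the same shift of all genes. The trend test, with 2 residual degrees of freedom, called nothing in any of its 10 alternatives, which says nothing about stability. Of 32 called genes checked singly, 22 kept their call throughout and 10 lost it in at least 1 alternative, the most without the intensity trend (8). Snrpd1 turned to -0.0134 under median scaling (adjusted p = 0.951). Of 19 genes not called, 8 passed in at least 1, among them Ddx3x as lower under median scaling (-0.4189). The causes were not tested.

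Alternatives without the control array do not exist, since it is the only one. No paired analysis was possible because each diet has 1 pooled array. Signals near the filter and the 5 arrays limit what can be called.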

Other observations

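No named gene had a CR array set far from the other 3 by Dixon's criterion (0 of 51 checked), which chance alone would flag in about 1 gene in 20.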
